A study of Rattus norvegicus with 18 samples.

Results

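Messenger RNA of 42 genes of DNA replication and cell division was followed in rat epiblast and rat primordial germ cells (PGC), which later give rise to eggs and sperm. The genes were taken from a list of symbols, which was made with earlier results of these data known. The list held 14 genes of S phase, the phase in which DNA is copied, and 28 genes of mitosis. A row was found for 41 of them among the 32545 genes of the table, all 14 of S phase and 27 of mitosis. Ccnb2, a mitotic cyclin, is the symbol without a row; its level was not analysed here, and only its promoter is described.

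The 18 libraries came from Crlj:WI rats, a Wistar stock, and every group carried Prdm14-Venus, a fluorescent reporter of the germ cell gene Prdm14. Epiblast, the layer of the early embryo from which the body and the germ line arise, was taken at embryonic day (E) 7.25 and E7.75, with 2 male libraries and 1 female library at each day. PGC were taken on 4 days without a labelled sex, E9.5 and E10.5 and then E11.5 and E12.5, with 2 libraries a day. At E15.5 there were 2 male and 2 female libraries. The labels name no other allele or agent. How the cells were isolated, and how many embryos went into a library, is not given in the sources used here. Nothing in the labels ties a replicate to its own animal or litter. The p-values are thus about library-to-library spread, which may be technical.

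A dividing cell first licenses its replication origins. Cdc6 and Cdt1 load the MCM helicase, a ring of the subunits Mcm2 to Mcm7, which later opens the DNA together with the GINS complex, of which Gins2 is a part. Pcna is the sliding clamp of the DNA polymerases, Rrm1 and Rrm2 form ribonucleotide reductase, and Tyms makes thymidylate. E2f1 is a transcription factor that activates S phase genes. In mitosis, Cdk1 with the cyclins drives entry, the centromere and kinetochore attach chromosomes to the spindle, the checkpoint delays anaphase until they are attached, and the anaphase-promoting complex then frees separase (Espl1) to part the sister chromatids. PGC multiply while they migrate to and settle in the gonad. Female germ cells then enter meiosis and male germ cells stop dividing.

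The promoters of the classes carried different short motifs. S phase promoters are known for E2F sites, and promoters of genes that peak in late cell cycle for the cell cycle genes homology region (CHR) and CCAAT boxes. RefSeq promoters of the rat build GRCr8, from 250 bases before to 50 bases after the annotated start, were matched by symbol for 33 of the 42 genes, 10 of S phase and 23 of mitosis, Ccnb2 among the latter. Aurkb, Ccna2, Cdc6, E2f1, Incenp, Mcm4, Rrm2, Tpx2 and Ube2c had no match. Both strands were searched. CHR was spelled TTTGAA, with TTCGAA as a variant of it. The CCAAT box was searched as its name spells it. E2F was searched in 3 forms, of which one was TTCCCGC, another was spelled TTCGCGC, and the last of them read TTGGCGC. Overlapping matches of one motif were counted as 1, and a CCAAT match may overlap an E2F match.

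CHR letters were found in 15 of the 23 mitosis promoters (65.2%) and in 1 of the 10 S phase promoters (10%), that of Mcm2. They occur in 18.3% of all 33469 promoters of the table and in 11.7% of the 10681 promoters of genes tested here. E2F letters were found in 8 of 10 S phase promoters (80.0%) and in 4 of 23 mitosis promoters (17.4%), against 7.52% of all promoters and 14.3% of those of tested genes. The CCAAT box was in 7 of 10 S phase promoters (70.0%) and 18 of 23 mitosis promoters (78.3%), against 37.5% of all and 37.3% of tested. The CHR variant was in 2 of 10 (20.0%) and 2 of 23 (8.70%), against 1.69% of all and 1.98% of tested. A match describes letters in a window and is not a measured binding site. The RPKM table was made on another build (rn6), so these positions serve only the sequences.

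**Figure D1:**
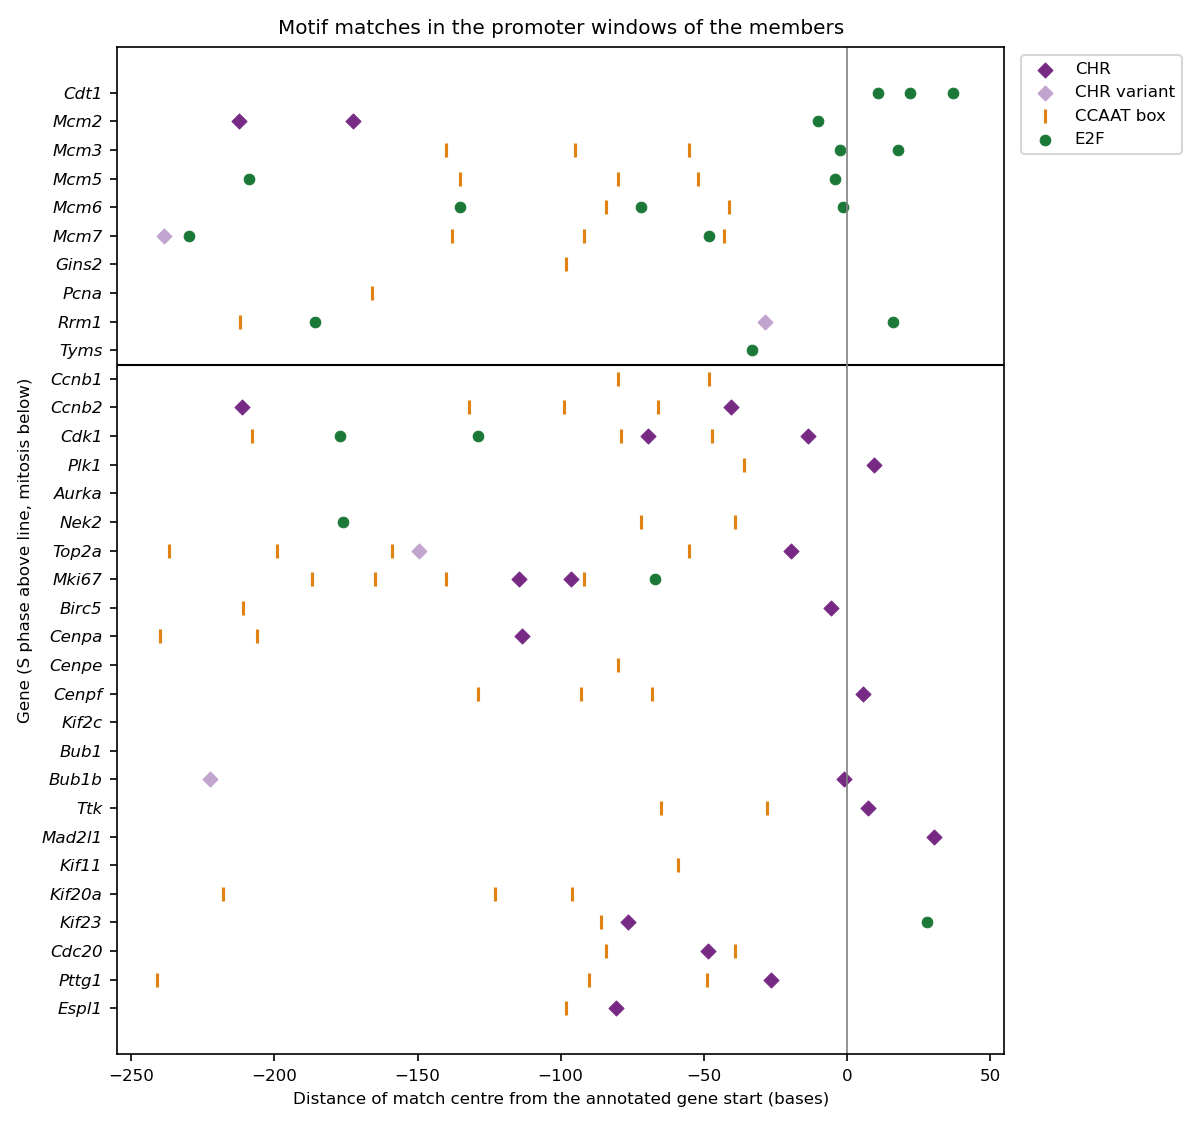
Motif matches in the 300-base promoter windows of 33 genes, by distance in bases of the match centre from the annotated gene start (horizontal axis) and by gene (vertical axis, S phase genes above the line and mitosis genes below). Each mark is 1 match; CHR marks lie in 15 of 23 mitosis windows and 1 of 10 S phase windows, and E2F marks in 8 of 10 S phase windows and 4 of 23 mitosis windows.

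The 250 bases before the start are printed for 3 mitosis genes and 3 MCM subunits whose transcript levels differed in either direction between epiblast and PGC. Capitals mark the letters of the motifs above, on either strand, and all are written 5′ to 3′ on the strand of the gene. Cenpa lies on the minus strand (chr6:31431553-31431802), Cdc20 on the minus strand (chr5:137255800-137256049) and Cdk1 on the plus strand (chr20:19265043-19265292). Mcm5 lies on the plus strand (chr19:13488563-13488812), Mcm6 on the minus strand (chr13:42404353-42404602) and Mcm7 on the minus strand (chr12:22163179-22163428).
Cenpa: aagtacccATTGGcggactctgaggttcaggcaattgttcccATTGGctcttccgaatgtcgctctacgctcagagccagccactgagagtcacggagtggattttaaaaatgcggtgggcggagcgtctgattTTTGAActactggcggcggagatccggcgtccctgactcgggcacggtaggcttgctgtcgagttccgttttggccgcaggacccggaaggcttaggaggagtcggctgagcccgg
Cdc20: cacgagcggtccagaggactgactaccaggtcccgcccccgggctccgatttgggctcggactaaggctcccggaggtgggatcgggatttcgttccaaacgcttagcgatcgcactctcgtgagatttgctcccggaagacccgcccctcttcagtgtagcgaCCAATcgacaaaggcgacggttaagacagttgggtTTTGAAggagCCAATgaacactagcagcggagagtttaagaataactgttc
Cdk1: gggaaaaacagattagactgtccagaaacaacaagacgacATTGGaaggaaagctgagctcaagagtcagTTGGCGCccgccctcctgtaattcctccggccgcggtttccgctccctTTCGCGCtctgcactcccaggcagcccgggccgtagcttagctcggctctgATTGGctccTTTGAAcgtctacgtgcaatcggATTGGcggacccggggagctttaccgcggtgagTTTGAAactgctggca
Mcm5: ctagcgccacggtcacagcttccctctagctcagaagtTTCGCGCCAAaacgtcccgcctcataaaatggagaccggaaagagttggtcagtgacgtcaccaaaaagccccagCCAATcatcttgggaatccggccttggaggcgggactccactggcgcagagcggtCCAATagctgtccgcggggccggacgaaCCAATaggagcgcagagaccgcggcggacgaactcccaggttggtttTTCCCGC
Mcm6: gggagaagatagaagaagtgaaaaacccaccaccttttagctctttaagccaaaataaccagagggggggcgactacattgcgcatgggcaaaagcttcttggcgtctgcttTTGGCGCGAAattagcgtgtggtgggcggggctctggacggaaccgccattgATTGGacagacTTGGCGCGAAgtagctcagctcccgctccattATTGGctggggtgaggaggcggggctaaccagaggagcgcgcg
Mcm7: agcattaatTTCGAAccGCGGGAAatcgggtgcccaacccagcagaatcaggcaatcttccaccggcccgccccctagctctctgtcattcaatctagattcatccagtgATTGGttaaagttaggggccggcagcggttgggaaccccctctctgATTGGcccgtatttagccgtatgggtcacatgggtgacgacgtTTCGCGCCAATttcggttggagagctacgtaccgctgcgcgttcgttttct

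Counted back from the gene start, with -1 as the base before it, CHR began at -116 in Cenpa, at -51 in Cdc20, and at -72 and -16 in Cdk1. E2F letters began at -212 and -7 in Mcm5, at -138 and -75 in Mcm6, and at -233 and -51 in Mcm7. Mcm6 had another E2F match from -5 across the start. The Cdk1 promoter held E2F letters as well, at -180 and -132. Cenpa, which was higher in PGC, and Cdc20 and Cdk1, which were lower, thus all held CHR letters, and Mcm6, which was higher, and Mcm5 and Mcm7, which were lower, all held E2F letters. Of other mitosis genes higher in PGC, Mki67, Cenpf, Ttk and Pttg1 held TTTGAA, and Ccnb1, Cenpe, Kif2c, Bub1 and Kif11 did not. Plk1 and Espl1, which were lower, held it. Of other S phase genes that differed, Mcm2, Rrm1 and Tyms held E2F letters and Gins2 did not.

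Every measured gene was transcribed in every library. Levels are given in RPKM, read numbers scaled to gene length and library size, and ran from 1.73 for Espl1 in the first E10.5 library to 719 for Pcna in the first E15.5 male library. None of the 41 genes fell under 1 RPKM in any library, so all 41 passed the filter on low values. By the mean over the 18 libraries Pcna was the most abundant S phase transcript, with single libraries at 432 to 719 RPKM, and E2f1 the lowest, at 5.76 to 25. Among mitosis genes Ccnb1 had the highest mean, with libraries at 320 to 692, and Espl1 the lowest, at 1.73 to 15. In some single libraries other genes ranked beyond them. In bulk libraries fewer cells of a kind and less RNA per cell cannot be told apart.

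The genes varied moderately over the 18 libraries. The highest library exceeded the lowest by less than 2-fold in 7 genes, by 2-fold to under 3-fold in 18, by 3-fold to under 5-fold in 14, and by more in 2, Cenpa and Espl1. Restricted to genes averaging 10 RPKM or more, the median range on the log2(RPKM + 1) scale was 1.5 over 39 members (1.54 for S phase and 1.42 for mitosis), beside 1.85 over 7183 tested genes.

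**Figure D2:**
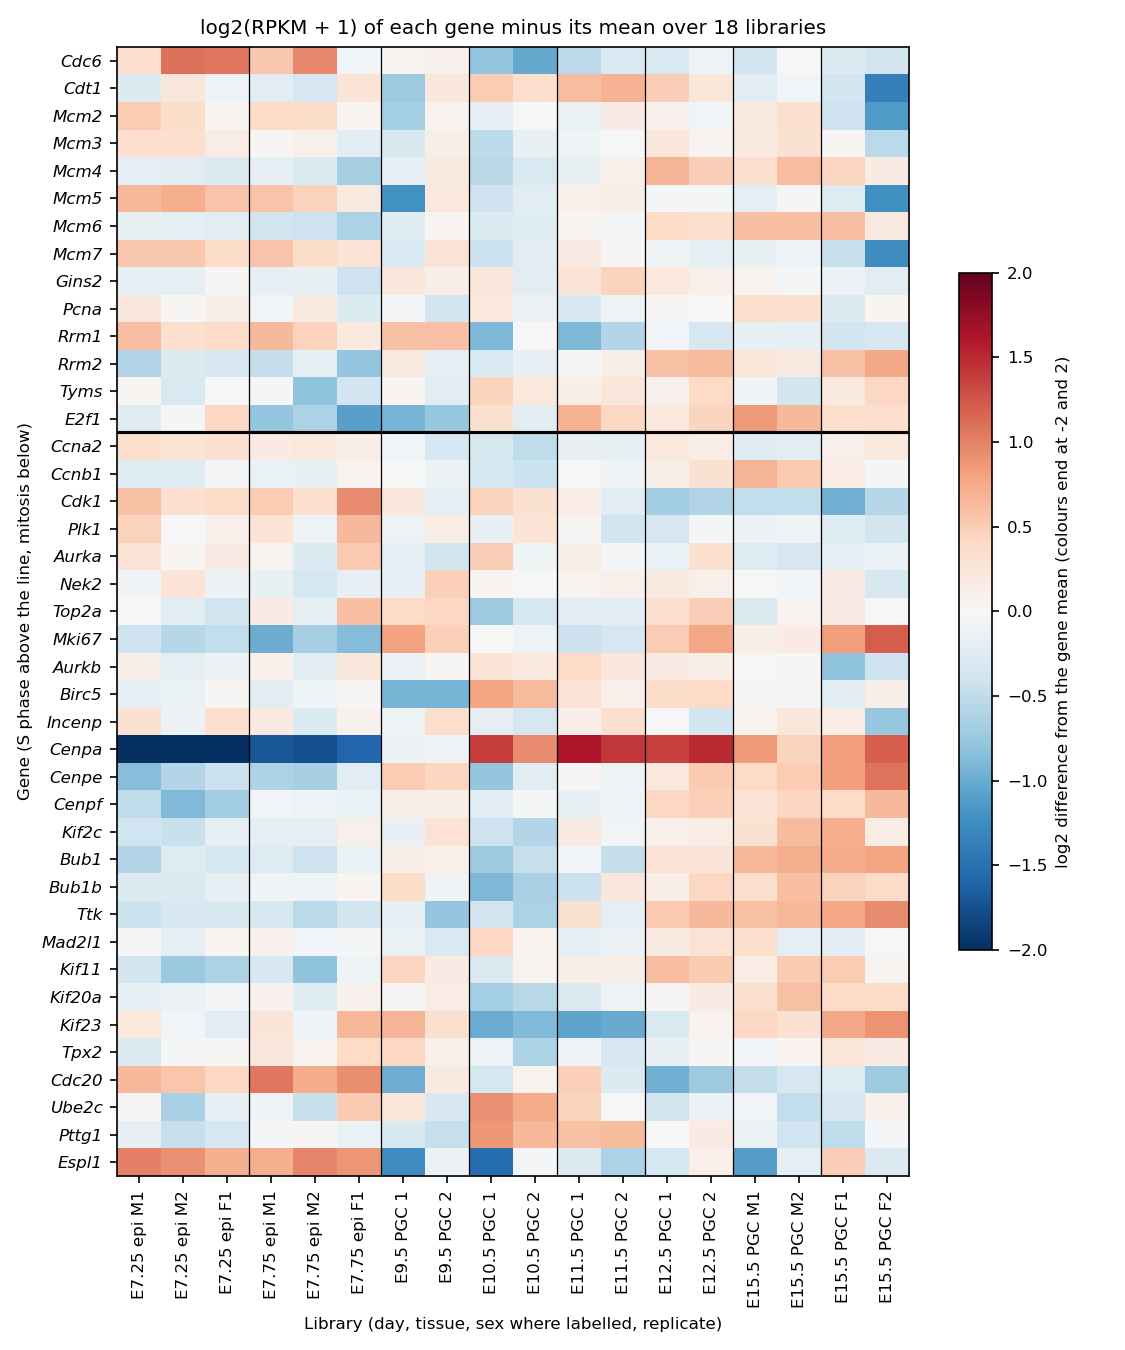
Each of the 41 measured genes (vertical axis, S phase above the line, mitosis below) in each of the 18 libraries (horizontal axis), as log2(RPKM + 1) minus the mean of the gene over all libraries. Red is above and blue below that mean, with colours ending at -2 and 2; Cenpa is blue in all 6 epiblast libraries and Espl1 red in all 6.

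Some facts of the series touch these results. Relative depth, read from the steps of low values against the E7.75 female library, spanned 82.6% to 121% for 14 libraries but 20.7% to 22.9% in the 4 E10.5 and E11.5 libraries. In these 4 the estimate rested on 55 to 83 genes at the most common ratio. Of all tested genes 21.3% and 21.6% were listed at 0 at E10.5. At E11.5 this was 14.4% and 15%, within the 8.29% to 15.4% of the 14 libraries. The germ cell markers summed to 14 to 35.7 RPKM in epiblast and to 396 to 1797 in PGC, and Tfap2c was at 0 to 0.639 in epiblast and 196 to 396 in PGC. Prdm1, Nanos3 and Kit were also higher in every PGC library, but Ddx4, Dazl, Dppa3 and Prdm14 were not. Ddx4 was at 3.98 to 29.7 in epiblast and at 2.46 and 0.0419 at E9.5. Dppa3 was at 0 in epiblast, 0.106 and 31.3 at E9.5, and 0.537 and 0 at E10.5. Prdm14 was at 0.299 in the first E10.5 library and at 1.11 in an epiblast library. Of 5 epiblast markers 4 had a row and 3 were above 0, while Fgf5 was listed at 0 in every library. The 3 summed to 2622 to 3522 RPKM in epiblast. In PGC they summed to 444 and 489 at E9.5, 2194 and 2377 at E10.5, and 515 to 2085 later. Dnmt3b lay between 915 and 1343 in epiblast and between 3.04 and 26.2 in PGC, while Utf1 (1080 to 1626 and 274 to 1982) and Pou5f1 (243 to 827 and 115 to 388) overlapped between them. The E9.5 libraries stood apart in markers of other cell types. There, 5 of 5 measured endothelial markers reached 1 RPKM in at least 1 library and summed to 29.3 and 117 RPKM, against at most 4.90 in any other library. Of 6 mesenchymal markers 5 reached 1 RPKM in at least 1 library, and the list summed to 171 and 174, against at most 22.4 elsewhere. Prrx2 alone made up 116 and 120 of the E9.5 sums, and it was at 18.6 and 20.1 in E15.5 males. Twist1 was at 34.2 and 27.1 at E9.5, and Col3a1 at 0 and 0.253. The gonadal markers summed to 16.1 and 37.2 at E9.5 and to at most 6.72 elsewhere. At E9.5 Gata4 alone made up 13.3 and 27.7 of these sums, and Wt1, Foxl2 and Nr5a1 were listed at 0. In the second E9.5 library Cldn5 and Cdh5 were listed at 0, while Kdr was at 25.3. The 6 immediate early genes listed for cell dissociation (Fos, Fosb, Jun, Junb, Egr1 and Atf3) summed to 12.5 to 29.3 RPKM in epiblast, 255 and 259 at E9.5, and 55.3 and 56.3 at E10.5. At E11.5 they summed to 185 and 209 and at E12.5 to 633 and 688, and at E15.5 to 547 and 564 in males and 229 and 275 in females. These sums move with the steps between stages and between the sexes, and their part in the results was not tested.

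PGC and epiblast differed in single genes of both classes, in both directions. Of the 41 genes 16 were higher and 10 lower in PGC, with an adjusted p under 0.05 (limma, Benjamini-Hochberg). That is 63.4% of them, beside 58.5% of all 14865 genes tested (32.1% higher and 26.4% lower), and the members were thus called about as often as genes at large. Of the 14 S phase genes 6 were higher and 5 lower, with a median log2 fold change of 0.02. Of the 27 mitosis genes 10 were higher and 5 lower, with a median of 0.14, beside 0.09 over all tested genes. All log2 fold changes are on the log2(RPKM + 1) scale. The libraries of the tissues did not overlap in 2 of 41 genes, Cenpa and Espl1, while this was so in 11.7% of all tested genes.

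Cenpa, the histone H3 variant that marks centromeres, differed most. In epiblast it was at 10.4, 9.17 and 9.34 RPKM at E7.25 and at 13.0, 12.5 and 14.1 at E7.75. In PGC it was at 40.9 and 42.2 at E9.5, 118 and 86.4 at E10.5, 138 and 120 at E11.5, and 117 and 127 at E12.5. At E15.5 it was at 81.2 and 61.1 in males and 79.9 and 103 in females. Every PGC library lay above every epiblast library, and E9.5 lay between epiblast and the later PGC. The mean was 93.0 ± 33.0 (SD, n = 12) in PGC and 11.4 ± 2.05 (SD, n = 6) in epiblast, 8.15-fold, with a log2 fold change of 2.84 ± 0.09 (SE) and an adjusted p of 1.49e-11.

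The other 3 centromere and kinetochore genes were higher in PGC too, by less, so that all 4 of this group were called higher. Cenpe, a kinetochore motor, had an epiblast median of 10.3 RPKM (8.57 to 13.7) and a PGC median of 21.8 (9.02 to 35.4). The log2 fold change was 0.84 ± 0.12 (adjusted p = 3.56e-05), and the first E10.5 library lay within the epiblast range. Cenpf, a large kinetochore protein, changed by 0.60 ± 0.07 (adjusted p = 9.47e-06) and Kif2c, a microtubule depolymerase, by 0.32 ± 0.10 (adjusted p = 0.0138).

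Anaphase control went the other way in 2 of its 4 genes. Espl1, the protease that cuts cohesin, was at 15, 13.9 and 12 RPKM at E7.25 and at 12.2, 14.7 and 13.6 at E7.75. In PGC it was at 2.34 and 6.29, 1.73 and 6.74, 5.5 and 4.10, and 5.20 and 7.52 from E9.5 to E12.5, and at E15.5 at 2.70 and 5.94 in males and 10.2 and 5.48 in females. All PGC libraries were below all epiblast libraries, and replicates at E9.5 and E10.5 stood far apart. The log2 fold change was -1.31 ± 0.25 (adjusted p = 0.000406). Cdc20, the activator of the anaphase-promoting complex, had an epiblast median of 180 RPKM (148 to 232) and a PGC median of 87.1 (56.0 to 154). The second-highest PGC library was at 126, so the overlap came from the first E11.5 library alone. Its log2 fold change was -1.09 ± 0.16 (adjusted p = 3.59e-05). Pttg1, the inhibitor of separase, was higher by 0.27 ± 0.08 (adjusted p = 0.00747), and Ube2c, the ubiquitin-conjugating enzyme of the complex, had 0.20 ± 0.15 (adjusted p = 0.289).

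The ratio of Pttg1 to Espl1 transcripts lay between 10.9 and 16.6 in epiblast and between 14.4 and 219 in PGC. The lowest PGC ratio was that of the first E15.5 female library and the highest that of the first E10.5 library, where Espl1 was at its minimum.

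Among mitotic cyclins and kinases 1 of 6 measured genes was higher and 3 were lower. Cdk1, the kinase of mitotic entry, had an epiblast median of 257 RPKM (235 to 364) and a PGC median of 149 (96.1 to 260), with a log2 fold change of -0.76 ± 0.10 (adjusted p = 1.86e-05). It stood at 221 and 166 at E9.5, 260 and 232 at E10.5, and 208 and 163 at E11.5. Only the first E10.5 library lay within the epiblast range, and from E12.5 on Cdk1 was between 96.1 and 134. Ccnb1, the B-type cyclin that binds Cdk1, was higher by 0.18 ± 0.06 (adjusted p = 0.0174). The ratio of Ccnb1 to Cdk1 was 1.24 to 1.71 in epiblast, 1.29 to 2.52 from E9.5 to E11.5 and 3.28 to 5.19 from E12.5 on. Ccna2, the A-type cyclin, had -0.36 ± 0.05 (adjusted p = 5.62e-05) and Plk1, a kinase of spindle assembly, -0.35 ± 0.12 (adjusted p = 0.0189), both lower. Aurka (-0.20 ± 0.12) and Nek2 (0.15 ± 0.13), centrosome kinases, did not pass.

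The checkpoint kinases Bub1 and Ttk were higher in PGC, by 0.50 ± 0.08 (adjusted p = 0.000111) and 0.57 ± 0.10 (adjusted p = 0.000144). Ttk was narrow in epiblast, at 70.8 to 82.5 RPKM, and wide in PGC, from 59.6 at E9.5 to 198 at E15.5 in a female library. From E12.5 on all 6 libraries were at 149 or more. The checkpoint genes Bub1b (0.21 ± 0.11) and Mad2l1 (0.05 ± 0.08) did not pass. Mki67, which coats mitotic chromosomes and is the common proliferation marker, had a median of 16.2 RPKM in epiblast (12.2 to 18.7) and 32.0 in PGC (18.6 to 60.2). Its log2 fold change was 1.0 ± 0.09 (adjusted p = 5.87e-07), and the first E11.5 library, at 18.6, lay just within the epiblast range.

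Of the spindle and midbody genes Kif11, the motor that separates spindle poles, was higher by 0.74 ± 0.12 (adjusted p = 9.92e-05). Kif20a (0.10 ± 0.07), Kif23 (-0.20 ± 0.11) and Tpx2 (-0.09 ± 0.09) did not pass. None of the 3 chromosomal passenger genes, which correct attachments and act in cytokinesis, passed: Aurkb had 0.02 ± 0.08, Birc5 0.14 ± 0.06 and Incenp -0.13 ± 0.14. Birc5 passed under quantile normalization (0.22, adjusted p = 0.00209), and the helicase subunit Mcm3 passed under median-of-ratios scaling (-0.25, adjusted p = 0.0336). Top2a, which untangles DNA, had the smallest difference of all mitosis genes, with 81.6 ± 20.5 RPKM (SD, n = 12) in PGC and 80.8 ± 21.7 (SD, n = 6) in epiblast (log2 fold change 0.01 ± 0.11, adjusted p = 0.946).

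S phase genes split within a single complex. Of the 8 licensing and helicase genes 2 were higher and 4 lower in PGC. Cdc6, the loader of the helicase, had an epiblast median of 89.0 RPKM (50 to 113) and a PGC median of 41.9 (25 to 55). Its log2 fold change was -0.99 ± 0.15 (adjusted p = 5.37e-05), and the overlap came from the E7.75 female library at 50 RPKM. Its partner Cdt1 had 0.09 ± 0.17 (adjusted p = 0.650). The ratio of Cdt1 to Cdc6 was 0.269 to 0.851 in epiblast, 1.37 to 1.78 at E10.5 and E11.5, and 0.325 and 0.622 in E15.5 females.

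Within the helicase, Mcm5, Mcm7 and Mcm2 were lower in PGC and Mcm6 and Mcm4 were higher. Mcm5 had an epiblast median of 174 RPKM (133 to 193) and a PGC median of 108 (49.1 to 135), with a log2 fold change of -0.79 ± 0.18 (adjusted p = 0.00150). Mcm7 had 350 (309 to 381) and 226 (107 to 312), with -0.67 ± 0.11 (adjusted p = 0.000142). In both genes the second E9.5 library, at 135 and 312 RPKM, was the only PGC library inside the epiblast range. Mcm2 changed by -0.43 ± 0.13 (adjusted p = 0.00959). Mcm6 had 295 (234 to 330) in epiblast and 394 (301 to 555) in PGC, with 0.50 ± 0.07 (adjusted p = 2.47e-05). Mcm4 changed by 0.46 ± 0.09 (adjusted p = 0.000576), and Mcm3 had -0.18 ± 0.10 (adjusted p = 0.139).

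Set against the sum of the 6 subunits in the same library, the subunits separated the tissues further. The sum itself overlapped, at 1035 to 1391 RPKM in epiblast and 860 to 1462 in PGC. Mcm6 made up 21.7% to 25.3% of it in epiblast and 29.6% to 47.9% in PGC, and Mcm4 6.66% to 7.42% and 8.33% to 14.3%. Mcm5 made up 12.9% to 14.2% in epiblast and 5.65% to 10.7% in PGC, and Mcm7 26.6% to 29.9% and 12.5% to 24.6%. In these 4 subunits the ranges of the tissues did not overlap, while in RPKM the ranges of all 6 overlapped. The shares are parts of the same sum, so a rise in some lowers others and they are not independent results. No such count was made for other genes. The share of Mcm3 was 10.7% to 12.4% and 10.4% to 12.3%, and that of Mcm2 14.2% to 18% and 8.87% to 16.9%, both overlapping.

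The Mcm6 share was 35.3% and 29.6% at E9.5, 33.6% and 30.6% at E10.5, 32.2% and 30.0% at E11.5, and 35.5% and 36.3% at E12.5. At E15.5 it was 40.3% and 37.7% in males and 44.3% and 47.9% in females, above every earlier library. The ratio of Mcm6 to Mcm5 lay between 1.61 and 1.79 in all 6 epiblast libraries, a narrow range across both days and sexes, and between 2.78 and 8.40 in PGC. These are ratios of gene-length-scaled RPKM and say nothing of protein amounts. They need no scaling between libraries. Among the subunits Mcm6 rose most and Mcm5 fell most in PGC, so their ratio adds no result beyond their calls.

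**Figure D3:**
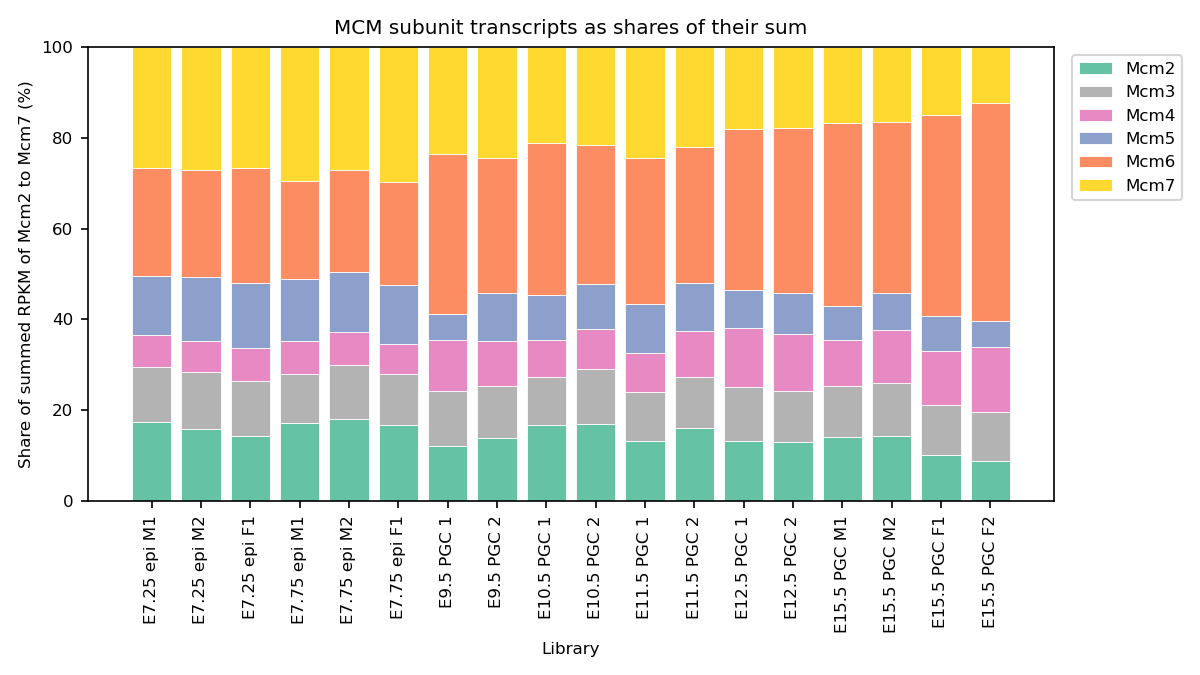
Share of each of the 6 MCM subunits in their summed RPKM (vertical axis, percent) in each of the 18 libraries (horizontal axis). The Mcm6 band covers 21.7% to 25.3% in the 6 epiblast libraries and 29.6% to 47.9% in the 12 PGC libraries, and the Mcm5 and Mcm7 bands are narrower in PGC.

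Nucleotide supply was split in a like way between the subunits of ribonucleotide reductase. Rrm1, the large subunit, was lower in PGC (-0.66 ± 0.12, adjusted p = 0.000247), with a median of 133 RPKM in epiblast (114 to 156) and 83.5 in PGC (52.5 to 150). Rrm2, the small subunit, was higher by 0.66 ± 0.10 (adjusted p = 5.85e-05), with 21.0 (16.0 to 24.6) and 32.1 (22.6 to 48.2). The ratio of Rrm2 to Rrm1 was 0.119 to 0.187 in epiblast and 0.214 and 0.166 at E9.5. From E10.5 on it was 0.25 to 0.62, above every epiblast library. Tyms was higher by 0.37 ± 0.11 (adjusted p = 0.0104).

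E2f1 was higher in PGC by 0.59 ± 0.13 (adjusted p = 0.00155), although epiblast ranged from 5.76 to 18.1 RPKM. Gins2 was higher by 0.26 ± 0.10 (adjusted p = 0.0346). Pcna had the smallest difference of the S phase genes, with 562 ± 94.0 RPKM (SD, n = 12) in PGC and 583 ± 70.7 (SD, n = 6) in epiblast (log2 fold change -0.06 ± 0.08, adjusted p = 0.538). After quantile normalization that difference was 0.21 with an adjusted p of 0.00380, with the other sign.

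**Figure D4:**
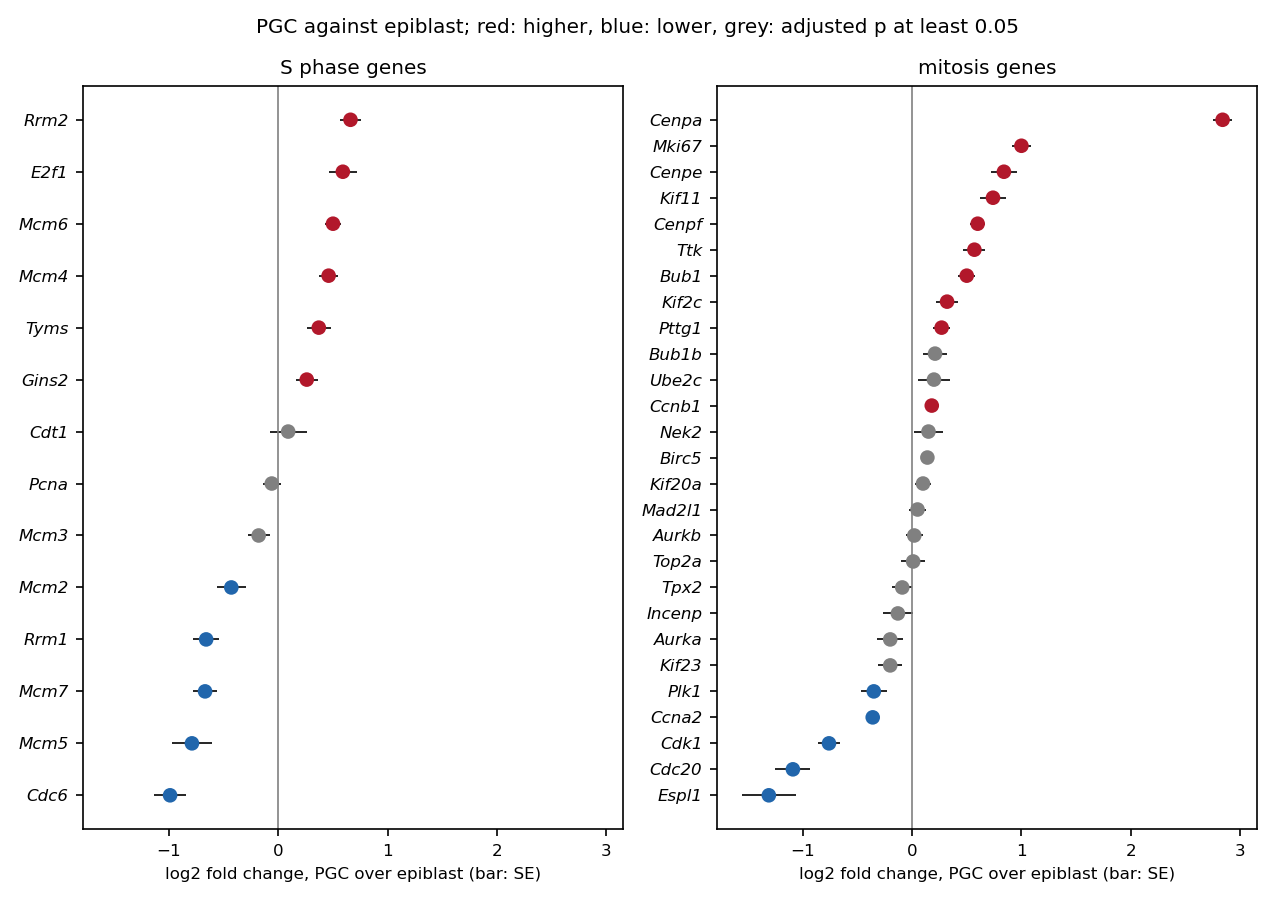
log2 fold change of PGC over epiblast (horizontal axis; bar, standard error) for 14 S phase genes and 27 mitosis genes (vertical axis, ordered by fold change). Red marks the 16 genes called higher, blue the 10 called lower and grey the 15 that did not pass; Cenpa stands apart at 2.84.

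Leaving out each library in turn kept 23 of these 26 calls in all 18 refits. Plk1 was lost when the E7.75 female (adjusted p = 0.0671) or the first E7.25 male library was left out, and Ccnb1 without the second male library of E7.25 (adjusted p = 0.0532) or of E7.75. Gins2 was lost without any of 6 libraries (both E7.25 males, E7.75 female, second E11.5, first E12.5, first E15.5 male), with an adjusted p up to 0.0986. Median-of-ratios scaling ended the calls of Gins2 (adjusted p = 0.114), Ccnb1 (0.147) and Pttg1 (0.0535), and quantile normalization those of Gins2 (0.378) and Mcm2 (0.0915). No called gene changed sign. With E10.5 and E11.5 taken out of the PGC mean 16 genes were higher and 10 lower, and with E9.5 taken out 16 were higher and 11 lower. Those fits still used all 18 libraries for the estimate of the spread.

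Other genes of the same pathways were counted from lists beside the members. Of 46 other replication genes tested 15 were higher and 12 lower in PGC (32.6% and 26.1%), with a median of 0.07, beside 32.1% and 26.4% of all tested genes. The largest fall was that of Ccne1, the cyclin of S phase entry, at 172 ± 23.2 RPKM (SD, n = 6) in epiblast and 30.1 ± 7.19 (SD, n = 12) in PGC (-2.50 ± 0.10, adjusted p = 1.15e-10). The largest rise was that of Slbp, which binds the stem-loop of histone messages, from 185 ± 26.2 to 420 ± 157 (1.11 ± 0.10, adjusted p = 3.18e-07). Of 69 other mitosis genes tested 31 were higher and 9 lower (44.9% and 13.0%), with a median of 0.22. Cep55, a protein of abscission, had the largest rise (1.91 ± 0.14, adjusted p = 4.94e-08) and Fam64a the largest fall (-3.15 ± 0.14, adjusted p = 3.04e-10).

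Between E7.25 and E7.75 epiblast no member passed, and 0.269% of all tested genes did (limma) (0.101% higher and 0.168% lower). At an unadjusted p under 0.05 there were 1300 of all 14865 tested genes and 8 of the members. The lowest adjusted p was that of Cenpf, at 34.4, 26.4 and 30.2 RPKM at E7.25 and 47.7, 46.3 and 45 at E7.75, which do not overlap (0.60 ± 0.12, adjusted p = 0.0658). E2f1 was at 11.2, 13.2 and 18.1 and then at 7.38, 8.25 and 5.76 (-0.88 ± 0.22, adjusted p = 0.154). Rrm1 (-0.01 ± 0.19) and Birc5 (0.01 ± 0.10) differed least. All 14 S phase genes had a log2 fold change below 0, with a median of -0.17, and 20 of 27 mitosis genes had one above 0, with a median of 0.12. Such signs were not counted over all tested genes, whose median was 0.00. The 46 other replication genes had a median of -0.04 and the 69 other mitosis genes one of 0.09, and none of them passed. After quantile normalization 2 of the S phase genes were above 0.

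The E7.75 female library differed from the males of its day in this direction. In it 12 of 14 S phase genes lay below both males of the day and 17 of 27 mitosis genes above both. The share of all tested genes that lay so was not counted. At E7.25 the female library had 6 S phase genes below both males and 10 mitosis genes above both. With 1 female library a day, sex and library cannot be told apart.

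From E7.75 epiblast to E9.5 PGC 5 members rose and 6 fell, 26.8% of them beside 27.6% of all tested genes (16.3% higher and 11.3% lower). The risers were Cenpa, Mki67, Cenpe, Kif11 and Mcm6, and those that fell were Espl1, Cdc20, Mcm5, Birc5, Cdk1 and Ccna2. Median-of-ratios scaling gave 3 and 8, and quantile normalization 4 and 3. Cenpa rose from 13.0, 12.5 and 14.1 RPKM to 40.9 and 42.2 (1.59 ± 0.17, adjusted p = 1.25e-05). Mki67 rose from 12.2, 15.7 and 13.4 to 45.1 and 35.5 (1.48 ± 0.17, adjusted p = 2.72e-05). In both genes the groups were well apart.

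Birc5, the survivin subunit of the passenger complex, fell from 177, 193 and 208 RPKM to 107 and 107 (-0.84 ± 0.11, adjusted p = 0.000103). Espl1 fell from 12.2, 14.7 and 13.6 to 2.34 and 6.29 (-1.55 ± 0.45, adjusted p = 0.0194). Mcm6 rose from 280, 272 and 234 to 309 and 376 (0.38 ± 0.12, adjusted p = 0.0354). Mcm5 went from 174, 161 and 133 to 49.6 and 135, overlapping, with -0.91 ± 0.32 (adjusted p = 0.0483). E2f1 (-0.01 ± 0.24) and Ccnb1 (0.01 ± 0.11) differed least.

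The calls of Cenpa, Mki67, Cenpe and Birc5 held in all 18 refits without 1 library. Without the first E9.5 library Mcm5 (-0.20, adjusted p = 0.668), Espl1 (-0.99, 0.209), Cdc20 (-0.73, 0.0680) and Kif11 (0.57, 0.162) did not pass. Without the second, Mcm6 (0.24, 0.270), Cdk1 (-0.37, 0.278) and Ccna2 (-0.22, 0.138) did not. Mcm5 passed in 3 of the 18 refits, and the second E7.75 male library also ended the calls of Mcm6, Kif11 and Espl1 when left out, the first Cdk1, and the female one Mcm6 and Cdk1. Both scalings kept 6 of the 11 calls. The E9.5 libraries also differed from each other, by a median of 0.404 in log2 over genes against 0.221 to 0.335 in the other PGC groups. Their endothelial and mesenchymal RNA moves with this step, and its part in the result was not tested.

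From E9.5 to E10.5 6 members rose and 11 fell, 41.5% of them beside 29.9% of all tested genes (11.5% higher and 18.4% lower). Over all tested genes the median log2 fold change was -0.158, and -0.0754 after median-of-ratios scaling and 0.0273 after quantile normalization. Of the mitosis genes 5 rose (Birc5, Cenpa, Pttg1, Ube2c and Mad2l1) and 9 fell (Kif23, Cenpe, Top2a, Bub1b, Bub1, Kif20a, Mki67, Tpx2 and Kif2c). Of the S phase genes E2f1 rose and Rrm1 and Cdc6 fell. The same libraries as before serve as E9.5, so this step and the one before share them.

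Birc5 rose from 107 and 107 RPKM to 355 and 317 (1.64 ± 0.12, adjusted p = 1.86e-06), its highest level in the series. Cenpa rose from 40.9 and 42.2 to 118 and 86.4 (1.26 ± 0.19, adjusted p = 0.000215). Kif23, a motor of the midbody, fell from 72.7 and 56.6 to 22.2 and 23.9 (-1.44 ± 0.22, adjusted p = 0.000318). None of the 3 overlapped. The share of all tested genes without overlap was not counted for any single step, so such statements add nothing to the calls. Rrm1 went from 150 and 149 to 52.5 and 99.3 (-1.04 ± 0.23, adjusted p = 0.00435), Cdc6 from 53.4 and 55 to 29.5 and 25 (-0.97 ± 0.30, adjusted p = 0.0235), and E2f1 from 6.58 and 7.51 to 16.9 and 11.4 (0.89 ± 0.26, adjusted p = 0.0206). Mcm6 (-0.16 ± 0.14) and Plk1 (0.04 ± 0.23) differed least.

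The calls of Birc5, Cenpa, Kif23, Pttg1, Kif20a, Bub1 and Bub1b held without any 1 library. Without the first E10.5 library Rrm1 (-0.59, adjusted p = 0.0509), E2f1 (0.63, 0.160), Top2a (-0.75, 0.0588), Cenpe (-0.68, 0.0847) and Mad2l1 (0.30, 0.308) did not pass. Without the second, Cdc6 (-0.86, 0.107) and Tpx2 (-0.36, 0.193) did not. Without the first E9.5 library Mki67 (-0.52, 0.0989) did not, and without the second Kif2c (-0.36, 0.294) and Ube2c (0.60, 0.272) did not. Of 18 refits Kif2c passed in 6, Ube2c in 9 and Mad2l1 in 3. Cdc6 was lost without any of the 4 libraries, E2f1 and Tpx2 also without the first of E9.5, and Mki67 also without the second of E10.5. Both scalings kept 11 of the 17 calls. The E9.5 markers of other cells and the shallow E10.5 depth stand on either side of this step, and their part in the result was not tested.

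From E10.5 to E11.5 1 member changed, 2.44% beside 7.19% of all tested genes (3.59% higher and 3.61% lower). An unadjusted p under 0.05 (limma) was found for 9 members, beside 3266 of all 14865 tested genes. Birc5 fell from 355 and 317 RPKM to 247 and 220 (-0.52 ± 0.12, adjusted p = 0.0234), without overlap. The call was lost without the second E11.5 library (-0.44, adjusted p = 0.153), the first of E11.5 or the first of E10.5. After quantile normalization 2 members rose and none fell, and the value of Birc5 was -0.23 (adjusted p = 0.236). Mcm2 (0.09 ± 0.26) and Cenpf (0.01 ± 0.15) differed least.

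From E11.5 to E12.5 3 mitosis genes rose and none of the members fell, 7.32% beside 7.21% of all tested genes (4.12% higher and 3.09% lower). Mki67 rose from 18.6 and 19.8 RPKM to 36.4 and 44.2 (1.03 ± 0.19, adjusted p = 0.00563). Kif23 rose from 21.2 and 21.9 to 36.3 and 47.2 (0.91 ± 0.22, adjusted p = 0.0258). Cenpf rose from 44.4 and 46.5 to 66.5 and 69.7 (0.57 ± 0.15, adjusted p = 0.0321). In all 3 both later libraries were above both earlier ones. Median-of-ratios scaling gave 2 risers and quantile normalization 5 risers and 1 that fell. Without the second E12.5 library none of the 3 passed (Mki67 0.0755, Kif23 0.209 and Cenpf 0.173 as adjusted p), Kif23 and Cenpf were lost without any of the 4 libraries, and Mki67 also without the first of E11.5. Mcm2 (0.00) and Plk1 (0.01 ± 0.23) differed least.

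At E15.5 male and female PGC were each compared with the same E12.5 libraries, so these comparisons share controls. In males none rose and 2 fell, 4.88% beside 8.73% of all tested genes (3.58% higher and 5.15% lower). Cenpa fell from 117 and 127 RPKM to 81.2 and 61.1 (-0.79 ± 0.19, adjusted p = 0.0177), and Ccna2 from 305 and 294 to 221 and 225 (-0.42 ± 0.11, adjusted p = 0.0254), both without overlap. Ccna2 was lost without any of the 4 libraries (adjusted p up to 0.143) and Cenpa without the second male library (-0.58, 0.171) or either E12.5 library. Cdc6 (0.01 ± 0.30) and Ttk (0.03 ± 0.19) differed least.

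In females 2 members rose and 5 fell, 17.1% beside 18.4% of all tested genes (8.60% higher and 9.84% lower). Of the S phase genes 3 of 14 fell and none rose. Cdt1 fell from 49.8 and 41.6 RPKM to 26.7 and 13.0 (-1.24 ± 0.33, adjusted p = 0.0182). Mcm2 fell from 179 and 162 to 127 and 76.3 (-0.78 ± 0.26, adjusted p = 0.0475), and Mcm7 from 242 and 223 to 187 and 107 (-0.71 ± 0.22, adjusted p = 0.0400). The second female library was the lower one in each, and without it the adjusted p was 0.204 for Cdt1, 0.392 for Mcm2 and 0.398 for Mcm7. Cdt1 was lost without either E12.5 library as well, and Mcm2 passed in 4 and Mcm7 in 9 of 18 refits.

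Aurkb, the kinase of the passenger complex, fell from 150 and 145 RPKM to 76.4 and 100 (-0.75 ± 0.16, adjusted p = 0.00521). Kif23 rose from 36.3 and 47.2 to 76.5 and 84.6 (0.94 ± 0.22, adjusted p = 0.00934), and Bub1 from 105 and 102 to 144 and 148 (0.49 ± 0.16, adjusted p = 0.0469). Birc5 fell by 0.42 on the log2 scale (adjusted p = 0.0309). Without the first female library Aurkb (-0.56, 0.0578) and Birc5 (-0.26, 0.225) did not pass, Birc5 was also lost without either E12.5 library, Kif23 was lost without the first E12.5 library (0.76, 0.0972) or the second female one, and Bub1 passed in 8 of 18 refits. E2f1 (0.01 ± 0.26) and Ccna2 (-0.03 ± 0.11) differed least.

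Between the sexes at E15.5 2 members were higher and 3 lower in females, 12.2% beside 9.68% of all tested genes (4.33% higher and 5.35% lower), or 1 and 4 after median-of-ratios scaling. Mki67 was at 46.0 and 60.2 RPKM in females and 27.5 and 28.5 in males (0.89 ± 0.19, adjusted p = 0.00892). Ccnb1 was at 477 and 417 in females and 692 and 616 in males (-0.55 ± 0.12, adjusted p = 0.0103). Mcm2 was at 127 and 76.3 in females and 193 and 210 in males (-1.02 ± 0.26, adjusted p = 0.0215). Groups did not overlap in these 3 genes, and the share of all tested genes without overlap was not counted. Aurkb was lower in females (-0.62 ± 0.16, adjusted p = 0.0265) and Ccna2 higher (0.39 ± 0.11, adjusted p = 0.0352). All 8 licensing and helicase genes had a log2 fold change below 0, with a median of -0.59, of which Mcm2 passed. Without the second female library 7 of the 8 were below 0, the median was -0.20 and 0 passed. How many of all tested genes lay below 0 was not counted, and their median was 0.00. The 46 other replication genes tested had a median of 0.11, with 0 higher and 3 lower in females. Cdc6 (-0.14 ± 0.30) and Birc5 (-0.01 ± 0.12) differed least of their classes.

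None of the 5 calls held without every library. Without the second female library Mcm2 (-0.66, adjusted p = 0.212), Mki67 (0.70, 0.0944) and Ccna2 (0.34, 0.162) did not pass, without the first male library Ccnb1 (-0.46, 0.103) did not, and without the first female library Aurkb (-0.43, 0.188) did not. Leaving out either male library also ended the calls of Mcm2, Aurkb and Ccna2, the first male one that of Mki67 and the second female one that of Ccnb1. Ccna2 was lost, too, without the first female or the second E7.25 male library. Markers of entry into meiosis summed to 278 and 349 RPKM in females and 83.1 and 93.9 in males, and Stra8, the inducer of meiosis, was at 71.9 and 80.4 in females and 0 in males. Their part in these differences was not tested.

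S phase and mitosis genes were last compared as classes at each stage, as the median log2(RPKM + 1) of the 14 S phase genes minus that of the 27 mitosis genes in each library. This is a description of these lists and carries no test. At E7.25 the S phase median was above the mitosis median in all 3 libraries, by 0.67, 0.53 and 0.53 (mean 0.58 ± 0.08 SD). At E7.75 the difference was 0.37 and 0.73 in males and -0.04 in the female library (0.35 ± 0.39). At E9.5 it was -0.07 and 0.69 (0.31 ± 0.54) and at E10.5 -0.10 and 0.51 (0.20 ± 0.43), so replicates differed in sign at both days. At E11.5 it was 0.04 and 0.23 (0.14 ± 0.13) and at E12.5 0.12 and -0.06 (0.03 ± 0.13). At E15.5 it was 0.11 and 0.22 in males (0.17 ± 0.08) and -0.01 and -0.28 in females (-0.15 ± 0.19).

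The 3 E7.25 libraries thus lay at or above 0.53, as did the second libraries of E7.75 males and of E9.5, while no library from E11.5 on exceeded 0.23. Both E15.5 female libraries were below 0 and both male ones above. The S phase median itself was 6.90 to 6.94 at E7.25 and 6.28 and 6.54 in E15.5 females, and the mitosis median 6.27 to 6.38 and 6.55 to 6.56. Each gene was also centred on its own mean over the 18 libraries, and class means then took the place of class medians. This difference of means was 0.32 ± 0.09 at E7.25 and -0.35 ± 0.21 in E15.5 females. In the other groups its mean lay between -0.10 and 0.04.

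**Figure D5:**
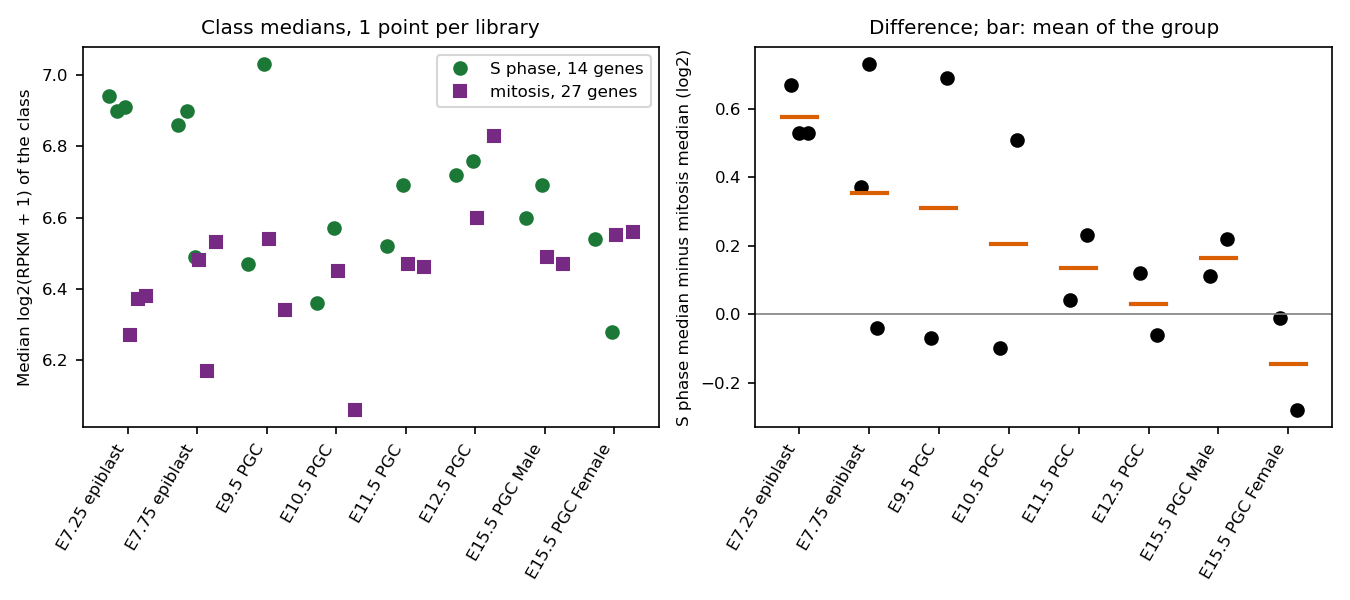
Left, the median log2(RPKM + 1) of 14 S phase genes (circles) and 27 mitosis genes (squares) in each library, by group; right, the S phase median minus the mitosis median (vertical axis, log2), 1 point per library with a bar at the group mean. The E7.25 epiblast libraries lie at 0.53 to 0.67 and the E15.5 female libraries at -0.28 and -0.01, and replicates at E9.5 and E10.5 lie on both sides of 0.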

How the data were processed

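Messenger RNA was measured in 18 libraries of rat epiblast and PGC, and samples were grouped by their titles into 8 stage groups. RNA was extracted with a PicoPure kit and libraries were made with a SMART-Seq v4 kit, per the labels' protocols. The values deposited by the authors are RPKM, in 1 table with 1 column per library. Tools in the submitters' processing notes are bcl2fastq 2.18.0.12, cutadapt 1.14, TopHat2 2.1.0 and Cufflinks 2.2.1, with the build rn6. No source used here states the annotation or strand use. RPKM divides by the mapped total, so a change of a few abundant genes shifts the rest.

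Values were transformed to log2(RPKM + 1). Genes with at least 1 RPKM in at least 2 libraries were tested (14865). limma 3.58.1 in R 4.3.3 was fitted to all 18 libraries with 8 groups, 10 residual degrees of freedom and a variance trend. Adjustment was by Benjamini-Hochberg over all tested genes within each of 9 comparisons, at a threshold of 0.05. Relative depth came from the most common ratio of values under 50 RPKM between libraries; true depth is unknown. In each comparison the text gives values for up to 3 members per class with the largest called change and at least 5 RPKM. It also names the smallest difference. For PGC against epiblast alone it names the largest rise and fall of the other lists. Genes of those lists that changed in the other comparisons are not named. Some further members were chosen after their values were seen. The members and lists were chosen with earlier results of these data known. Alternatives were a pseudocount of 0.1, no filter, median-of-ratios scaling, quantile normalization, a replicate block, the compared groups alone and leaving out each library. Taking E10.5 and E11.5, or E9.5, out of the PGC mean, with all 18 libraries still fitted, was chosen after seeing the data. Columns with samples of other series numbered 0. Plots used matplotlib 3.10.9 (Python 3.11.15).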

Additional observations from a re-analysis of the deposited data

Results flagged for a closer look

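In the E7.75 female library 2 genes stood apart from the other 5 epiblast libraries. Mcm4 was lowest there, at 68.9 RPKM with the next at 90, a gap of 0.753 of the whole range. Cdk1 was highest there, at 364 RPKM with the next at 282, a gap of 0.634 of the range. Chance sets a sample apart in this way in about 1 of 20 groups, and 41 genes were looked at.

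Since both sexes at E15.5 were compared with the same E12.5 libraries, the difference of their changes is the direct comparison of females with males. It passed for 5 members (limma, Benjamini-Hochberg), with log2 differences of females minus males of -1.02 for Mcm2, 0.39 for Ccna2, -0.55 for Ccnb1, 0.89 for Mki67 and -0.62 for Aurkb.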

How the results depend on the processing

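Counts of called members depended on the setting in most steps between neighbouring stages. When only the compared groups were fitted, with 2 or 3 residual degrees of freedom, 4 members passed from E7.75 to E9.5 and 0 in each later step and between the sexes. Of all 14865 genes 14.8% passed from E7.75 to E9.5 in those fits, 0 to E10.5, 0.377% to E11.5, 0 to E12.5, 2.24% to E15.5 males, 6.77% to E15.5 females and 0 between the sexes. Where 0 genes passed in limma, 3544, 3707 and 3183 had an unadjusted p under 0.05. Quantile normalization gave 7 from E7.75 to E9.5, 2 from E10.5 to E11.5, 6 from E11.5 to E12.5 and 4 from E12.5 to E15.5 males, where median-of-ratios scaling gave 1. The shares of all genes that passed there were 28.3%, 5.33%, 8.63% and 9.75% under quantile normalization, and 8.27% under median-of-ratios scaling in the last step. From E12.5 to E15.5 females no filter gave 4, with 13.0% of all 20432 genes. The replicate block also gave 4 there, and it moved no other count by over 1.5 times; replicate numbers did not pair the libraries (correlations of same-numbered deviations between groups from -0.133 to 0.0581).

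Without 1 library each, the count ranged from 0 to 1 between the epiblast days, 7 to 12 to E9.5, 9 to 17 to E10.5, 0 to 2 to E11.5, 0 to 7 to E12.5, 0 to 3 to E15.5 males, 1 to 8 to E15.5 females, 0 to 6 between the sexes, and 24 to 28 for PGC against epiblast. Shares of all genes in the same order were 0.108 to 0.336%, 22.6 to 29.4%, 23.4 to 29.8%, 2.37 to 9.15%, 1.69 to 8.78%, 3.53 to 10.1%, 9.92 to 20.4%, 4.52 to 11.3% and 54.2 to 59.3%. No called member changed sign under either scaling. The S phase minus mitosis difference, with 1 library left out, ranged from 0.53 to 0.6 at E7.25, 0.17 to 0.55 at E7.75, -0.07 to 0.69 at E9.5, -0.10 to 0.51 at E10.5, 0.04 to 0.23 at E11.5, -0.06 to 0.12 at E12.5, 0.11 to 0.22 in E15.5 males and -0.28 to -0.01 in females. It thus turned negative without the second library of E9.5 (-0.07) or E10.5 (-0.10) or the first of E12.5 (-0.06). As a mean over members it was 0.55 at E7.25, 0.20 at E7.75, 0.13 at E9.5, 0.16 at E10.5, 0.28 at E11.5, 0.24 at E12.5, 0.27 in E15.5 males and -0.12 in females. Leaving out members under 1 RPKM removed 0 of them. The causes were not tested.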
